A study of Mus musculus with 6 samples.

Results

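Fatty acid uptake and binding in the liver was followed through 10 genes, which encode the lipases Lpl and Lipc, the receptors Cd36 and Vldlr, the fatty acid transport proteins Slc27a2 and Slc27a4, and the fatty acid binding proteins Fabp1, Fabp2, Fabp4 and Fabp5. They were taken by symbol from a table of 32212 gene rows, and each symbol matched 1 row. The table holds whole-number counts of polyadenylated RNA from pieces of liver, with 1 library from each of 3 WT and 3 CgA-KO mice. All 6 mice were male, on a C57BL/6 background, 2 yr old by their labels, and kept on a normal chow diet in a cycle of light and dark. CgA-KO mice lack chromogranin A, the prohormone encoded by Chga, and WT mice carry it. The labels give neither the hour of collection nor the feeding state, and they do not say how the mutant allele was made.

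Fatty acids reach liver cells bound to albumin or are released from lipoprotein triglyceride by lipases at the vessel wall. CD36 and the transport proteins of the Slc27a family help them across the plasma membrane, and several Slc27a proteins also couple them to coenzyme A. Inside the cell the small Fabp proteins hold fatty acids in solution and carry them towards oxidation, esterification or the nucleus, where they can act as ligands of PPAR nuclear receptors. In liver, Fabp1 is the abundant form of hepatocytes, whereas Lpl, Fabp4 and Fabp5 are well known from macrophages and other cells that are not hepatocytes.

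The libraries held between 10558616 and 31087453 counts, with WT replicate 1 the shallowest, and 13867 genes passed the filter on low counts, including all 10 members. Levels are CPM, counts relative to library size, after TMM scaling, which corrects library sizes by a trimmed mean of log ratios, and ± marks the SD over 3 livers. The TMM factor was 0.756 in WT replicate 2 and between 0.935 and 1.121 in the other libraries. A lower factor raises every CPM of its library. Changes are log2 fold changes of CgA-KO over WT from edgeR's quasi-likelihood test, called where the p-value, adjusted by Benjamini-Hochberg over every gene that passed the filter, was under 0.05. Chga had 0 counts in all 6 libraries, so the targeted gene could not check the genotype labels. The hepatocyte marker Alb was between 30670 and 66180 CPM in every library, as befits the liver label. With 3 livers a side, the smallest two-sided p of the exact permutation test of a single gene is 0.1.

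Among the 10 members, Lpl rose and Fabp1 and Fabp5 fell in CgA-KO livers, so that the triglyceride lipase of the circulation and 2 of the 4 binding proteins moved in opposite directions. Fabp1 and Fabp5 were 4.75-fold and 6.43-fold lower, and Lpl was 5.88-fold higher. Cd36 was higher in every CgA-KO liver but did not pass edgeR's test, and both transport proteins, Lipc, Vldlr, Fabp2 and Fabp4 were not called. The 3 called members of 10 stand beside 12.4% of all genes tested, 8.60% called higher and 3.84% called lower. The genotypes did not overlap in 4 of the members, Lpl, Cd36, Fabp1 and Fabp5, where 33.6% of all genes tested showed no overlap. The median log2 fold change of the members was -0.20, against -0.01 over all genes tested, and the 2 medians became 0.08 and 0.26 with scaling by library size alone. DESeq2, which the methods of the study name, called Cd36 and Fabp2 as well, 5 members against 18.8% of the genes to which it gave an adjusted p.

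**Figure D1:**
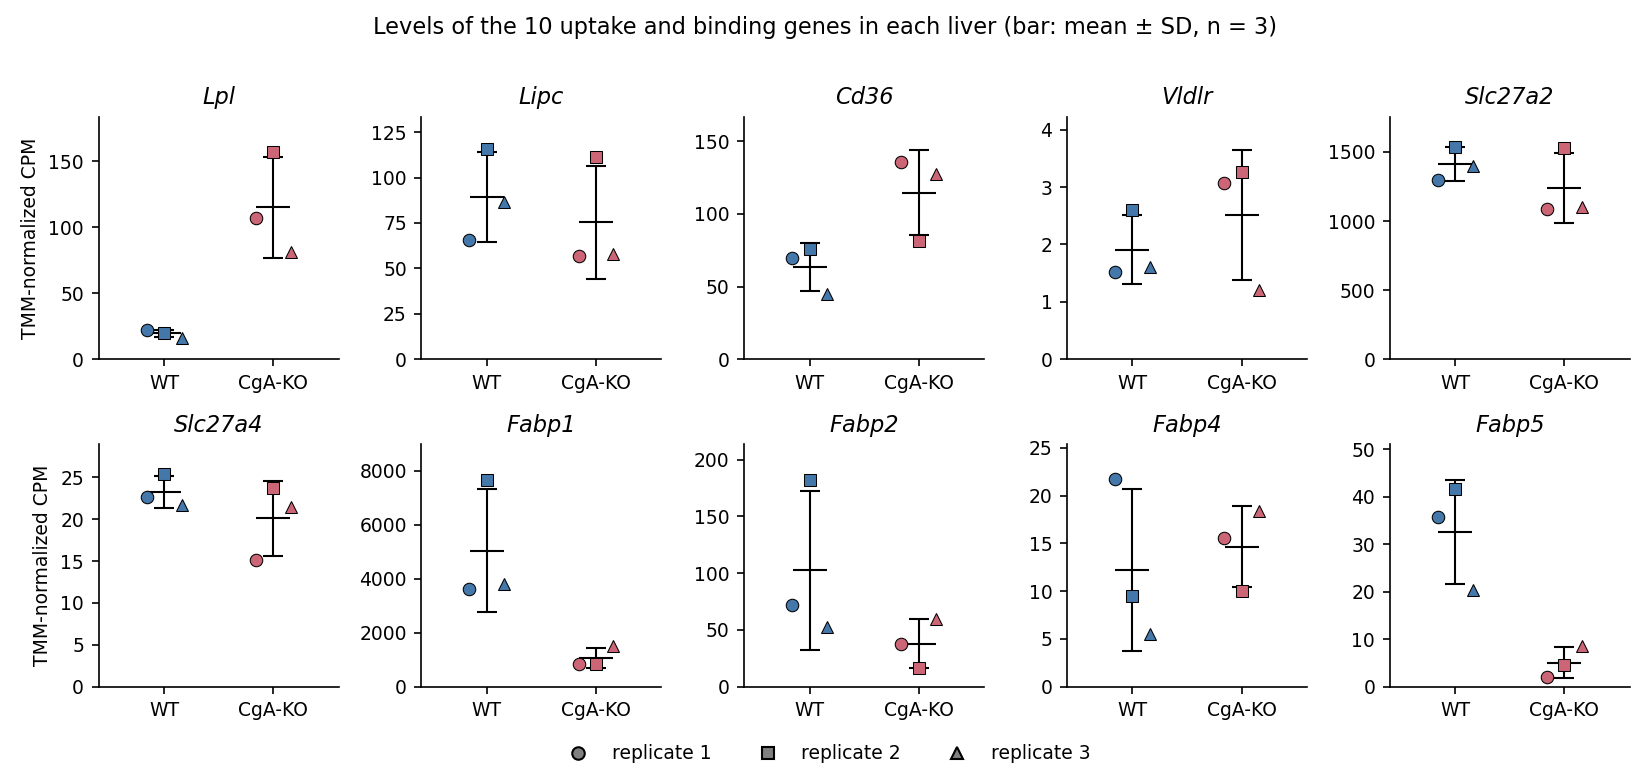
TMM-normalized CPM (y axis, from 0, its own scale in each panel) of each of the 10 genes in the 3 WT and the 3 CgA-KO livers, with a symbol for each replicate and a bar for the mean ± SD. Lpl, Cd36, Fabp1 and Fabp5 have no overlap between the genotypes, and the other 6 genes do.

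Lipoprotein lipase, encoded by Lpl, splits the triglyceride of circulating lipoproteins and is scarce in adult hepatocytes. Its gene lies on chromosome 8 of GRCm38 from 68880491 to 68907448. WT replicates 1, 2 and 3 were at 22.1, 20.2 and 16.5 CPM. CgA-KO replicates 1, 2 and 3 were at 107.1, 156.7 and 81.4 CPM. The lowest CgA-KO liver was thus well above the highest WT liver, and CgA-KO replicate 2 was the highest of all. The log2 fold change was 2.56 (95% interval 1.94 to 3.17, edgeR adjusted p = 0.00296). The exact permutation p was 0.1. Without any single library the change stayed between 2.31 and 2.78, with edgeR adjusted p-values between 0.00137 and 0.0171. Lpl was the only member still called at an adjusted p under 0.01, and it ranked 30 by p-value among all genes tested. In bulk tissue, more cells of a type and more RNA per cell cannot be told apart.

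Markers of macrophages moved with Lpl. Of 12 Kupffer cell markers, the resident macrophages of the liver, 11 were called higher and none lower, beside 8.60% of all genes tested called higher. The median log2 fold change of the 12 was 3.03. Their summed level was between 136.9 and 363.5 CPM in WT and between 1496 and 2126 CPM in CgA-KO livers, and no marker was at 0. Clec4f, the most abundant of them, ran from 29.1 to 96.1 CPM in WT and from 289.4 to 629.3 CPM in CgA-KO livers. With a library left out, the adjusted p of edgeR reached 0.0762 for Clec4f and 0.146 for Csf1r, and at most 0.024 for Vsig4. The exception to the calls was Marco, highest in CgA-KO replicate 2, with a log2 fold change of 1.52 (adjusted p = 0.632, edgeR). Of the 7 monocyte and neutrophil markers tested, 5 were called higher, beside the same 8.60%. With Mpo, the untested member of the 8 listed, they summed to between 45.8 and 133 CPM in WT and between 345.3 and 577.6 CPM in CgA-KO livers. Lyz2 was the most abundant of these, and its adjusted p reached 0.151 (edgeR) with a library left out. Mpo, which did not pass the filter, was at 0 in all WT libraries and in CgA-KO replicate 1. It was at 66.8 CPM in CgA-KO replicate 2. The part of these cells in the Lpl result was not tested. As a ratio of counts within a liver, a measure chosen after the values were seen, Lpl over the sum of the 12 Kupffer cell markers was 0.0609, 0.124 and 0.121 in WT replicates 1, 2 and 3. In CgA-KO replicates 1, 2 and 3 it was 0.0504, 0.0770 and 0.0544, and the genotypes overlapped (exact permutation test, p = 0.2).

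**Figure D2:**
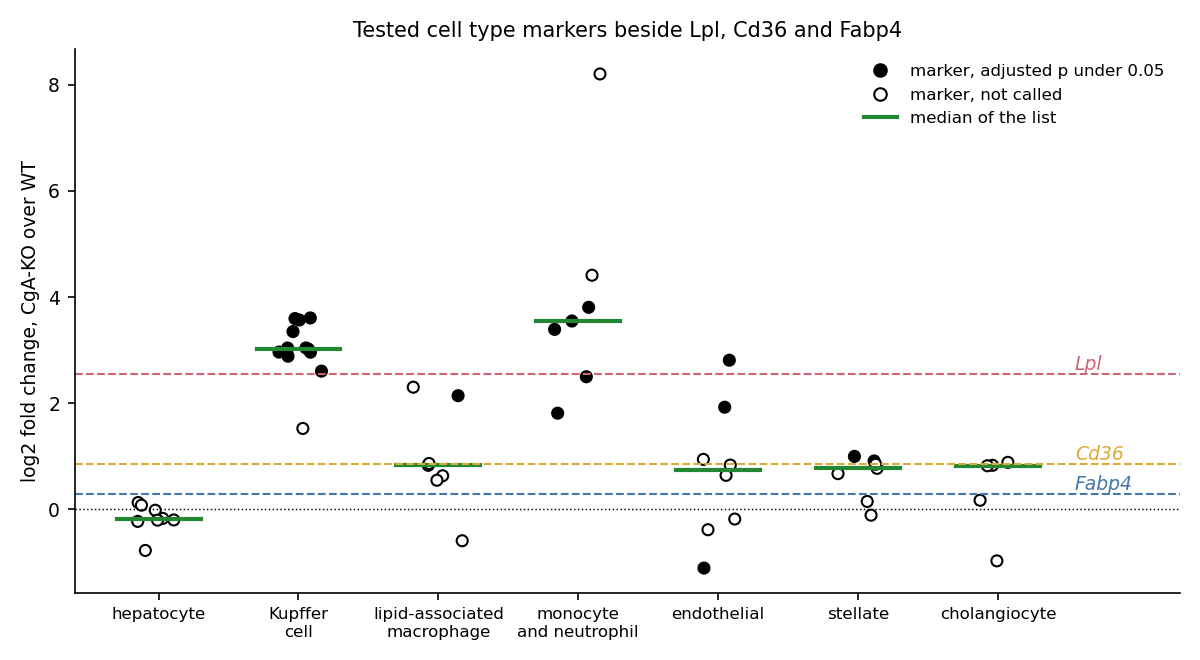
Log2 fold change of CgA-KO over WT (y axis) for the tested markers of 7 cell types (x axis), filled where the edgeR adjusted p was under 0.05, with the median of each list as a bar and the values of Lpl, Cd36 and Fabp4 as dashed lines. Lpl at 2.56 lies just below the median of the Kupffer cell markers at 3.03, hepatocyte markers have a median of -0.19, and the highest point is the neutrophil gene Ngp, which was at or below 1.61 CPM in all libraries but CgA-KO replicate 2.

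Markers of other cells in which Lpl is known were low for adipocytes and skeletal muscle, apart from Car3 and Cidec, and went both ways for endothelium. Of 7 adipocyte markers only Cidec and Car3, which liver also expresses, passed the filter, and Car3, the more abundant, fell with a log2 fold change of -1.91. Lep was at 0 in every library, Adipoq was at or below 0.0896 CPM and Plin1 at or below 0.297 CPM. Of 5 skeletal muscle markers Ckm and Myh4 were at 0 in every library and the most abundant, Mylpf, was at or below 1.19 CPM. The 8 endothelial markers had a median log2 fold change of 0.74, and Stab2 was the most abundant. Lyve1 rose by more than Lpl, with a log2 fold change of 2.81 (adjusted p = 0.00304, edgeR), from between 0.932 and 1.70 CPM in WT to between 8.97 and 11.2 CPM, Cdh5 rose with 1.92 and Clec4g fell with -1.11. The part of endothelial cells in the Lpl result was not tested. Of 7 markers of lipid-associated macrophages only Lgals3 was called, higher, beside 8.60% of all genes tested called higher. DESeq2 and scaling by library size alone each called 3 of the 7 higher. The adjusted p of Lgals3 reached 0.0532 (edgeR) with a library left out. Trem2, which defines the lipid-associated state and was chosen after its values were seen, had a log2 fold change of 2.30 (adjusted p = 0.116, edgeR). It was at 4.93, 2.21 and 0.508 CPM in WT and 7.15, 3.39 and 25.5 CPM in CgA-KO livers, with overlap. Gpnmb, the only 1 of the 7 with a negative change, had -0.595 (adjusted p = 0.681, edgeR). Ctsd was the most abundant of the 7. The 7 stellate cell markers had a median of 0.77 with Reln and Dcn called higher, and Dcn was the most abundant. None of 5 cholangiocyte markers was called, Spp1 being the most abundant.

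Genes for proteins that control lipoprotein lipase were not called in either direction by edgeR. The list held 10 genes, all tested, with a median log2 fold change of -0.25. Their median became 0.04 with scaling by library size alone, which moved the median of all genes from -0.01 to 0.26. Apoc1, an apolipoprotein that inhibits the lipase and the most abundant of the list, was at 4563, 10880 and 5667 CPM in WT and 3590, 2605 and 3886 CPM in CgA-KO livers, without overlap (adjusted p = 0.106, edgeR). DESeq2 called it lower, at -1.09 (adjusted p = 0.0134), the only call of that tool in the list. The next 2 were chosen after their values were seen. Gpihbp1, the endothelial protein that anchors the enzyme, was between 7.16 and 10.26 CPM over the 6 livers (adjusted p = 0.898, edgeR). Angptl4, an inhibitor of the enzyme, was between 130.3 and 161.5 CPM in WT and between 71.8 and 126.4 CPM in CgA-KO livers (adjusted p = 0.224, edgeR).

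Hepatic lipase, encoded by Lipc on chromosome 9 from 70798128 to 70952226, acts on smaller lipoproteins and is made by hepatocytes. It was at 65.8, 115.5 and 86.5 CPM in WT and at 56.9, 111.3 and 58.1 CPM in CgA-KO livers. The ranges overlapped almost wholly, and replicate 2 was the highest in both genotypes. Its log2 fold change was -0.24 (95% interval -0.96 to 0.47, edgeR adjusted p = 0.656), and the sign turned with scaling by library size alone. The ratio of Lpl to Lipc counts in the same liver, chosen after the values were seen, does not depend on scaling. It was 0.336, 0.175 and 0.191 in WT and 1.88, 1.41 and 1.4 in CgA-KO livers, without overlap (exact permutation test, p = 0.1). That lack of overlap was set by the values already given for both genes. The Lpl transcript is the longer, at 4115 against 1920 bases, and per length Lpl was below Lipc in all 6 livers.

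Of 6 other lipases tested, 3 fell, beside 3.84% of all genes tested, and 1 of the 6 did with scaling by library size alone. Ces1d, a carboxylesterase of hepatocytes that hydrolyses stored triglyceride, had a log2 fold change of -1.35 (adjusted p = 0.0174, edgeR). Lipg, endothelial lipase, had -1.32 (adjusted p = 0.0251, edgeR), and Mgll, which splits monoglyceride, had -0.68 (adjusted p = 0.0491, edgeR). Each of these 3 lost the call in at least 1 fit without a library.

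Cd36, a scavenger receptor that takes up long-chain fatty acids, lies on chromosome 5 from 17781690 to 17888801. It was at 69.95, 75.8 and 44.9 CPM in WT replicates 1, 2 and 3. In CgA-KO replicates 1, 2 and 3 it was at 135.5, 81.2 and 127.2 CPM. CgA-KO replicate 2 lay only a little above the highest WT liver, while the other two were far above it. The log2 fold change was 0.85 (95% interval 0.23 to 1.47), which edgeR did not call (adjusted p = 0.0750) and DESeq2 did (adjusted p = 0.0342). Without CgA-KO replicate 2 edgeR called it, at 1.09 (adjusted p = 0.0470), and with scaling by library size alone it was called at 1.13 (adjusted p = 0.0385, edgeR). Across the alternative fits it was called in 4 and not called in 11. The weakest of these was without WT replicate 3, at 0.65 (adjusted p = 0.247, edgeR). Macrophages and endothelial cells also carry CD36, and the marker levels given for Lpl stand beside this gene too; their part in it was not tested. The ratio of Cd36 counts to the sum of the 12 Kupffer cell markers was also chosen after the values were seen. It was 0.192, 0.467 and 0.328 in WT and 0.0637, 0.0399 and 0.0850 in CgA-KO livers (exact permutation test, p = 0.1). That it was lower in every CgA-KO liver was set by values already given. The marker sum was 8.54-fold higher in CgA-KO livers and Cd36 1.8-fold.

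Vldlr, the receptor for very low density lipoprotein, was the scarcest member, with 17 to 103 counts per library. It lies on chromosome 19 from 27216484 to 27254231. It was at 1.52, 2.60 and 1.61 CPM in WT and at 3.06, 3.27 and 1.21 CPM in CgA-KO livers, with the lowest liver of all in CgA-KO. The log2 fold change was 0.39 (95% interval -0.64 to 1.42, edgeR adjusted p = 0.622).

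Among 9 other receptors for lipid and lipoproteins that were tested, 1 was called higher and 1 lower, beside 8.60% and 3.84% of all genes tested. Msr1, a scavenger receptor of macrophages, whose markers are given beside Lpl, rose with a log2 fold change of 2.62 (adjusted p = 0.0143, edgeR). It went from between 4.74 and 18.8 CPM in WT to between 43.9 and 82.9 CPM in CgA-KO livers. The adjusted p of Msr1 reached 0.0992 (edgeR) with a library left out. The median of the 9 was -0.10, which became 0.18 with scaling by library size alone.

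The transport proteins gave no call. Slc27a2, which spans 126552407 to 126588243 on chromosome 2, encodes a very long-chain acyl-CoA synthetase of hepatocytes. It was at 1299, 1538 and 1401 CPM in WT and 1089, 1530 and 1099 CPM in CgA-KO livers. Its log2 fold change was -0.19 (95% interval -0.76 to 0.38, edgeR adjusted p = 0.668). Slc27a4, a transporter found in many tissues, lies on chromosome 2 from 29802634 to 29817522. It was at 22.7, 25.4 and 21.7 CPM in WT and at 15.1, 23.8 and 21.5 CPM in CgA-KO livers, with a change of -0.21 on the log2 scale (95% interval -0.67 to 0.26, edgeR adjusted p = 0.553). In both genes 2 of 3 CgA-KO livers lay below all WT livers and replicate 2 lay among them, and in both the sign turned with scaling by library size alone. Slc27a5, the bile acid-CoA ligase of hepatocytes and the most abundant of the 3 other Slc27a genes tested, had a log2 fold change of -0.18 (adjusted p = 0.689, edgeR), and none of the 3 was called.

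**Figure D3:**
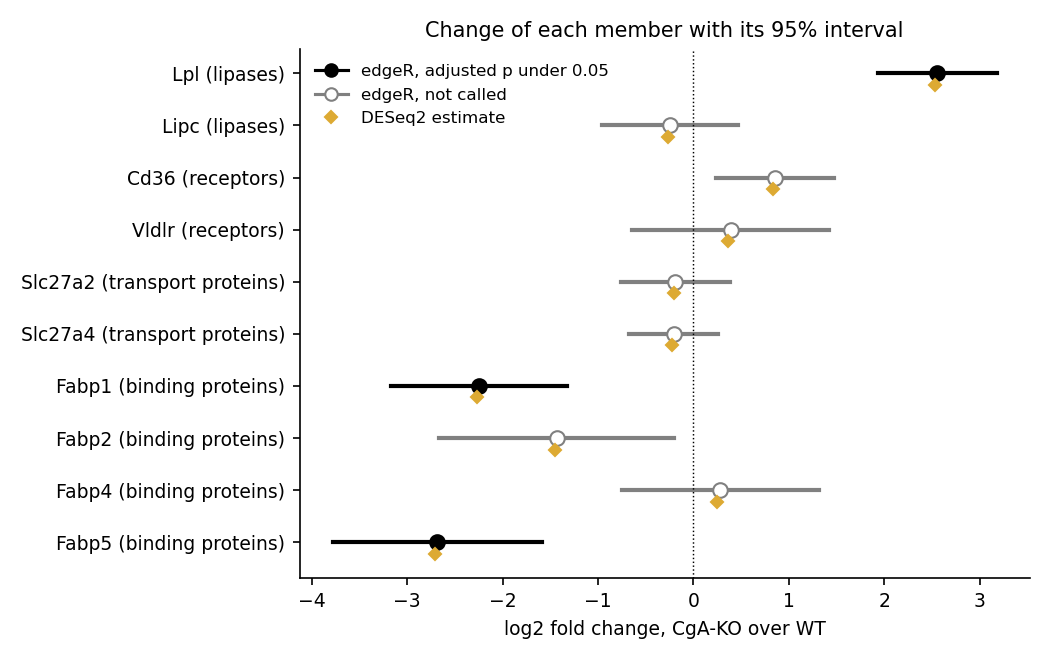
Log2 fold change of CgA-KO over WT (x axis) of the 10 genes by role, with the 95% interval of edgeR's estimate as a line, filled circles where the adjusted p was under 0.05 and the DESeq2 estimate as a diamond. The intervals of Lpl, Fabp1 and Fabp5 lie furthest from 0, those of Cd36 and Fabp2 also leave out 0 without a call after adjustment, and the other 5 include 0.

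Fabp1, liver fatty acid binding protein, is among the most abundant transcripts of hepatocytes and a classical target of PPAR alpha. The gene lies on chromosome 6 from 71199827 to 71205023. It was at 3631, 7664 and 3810 CPM in WT replicates 1, 2 and 3, and at 854.5, 837.1 and 1488 CPM in CgA-KO replicates 1, 2 and 3. WT replicate 2, the library with the lowest TMM factor, stood far above the other livers in CPM, and even the highest CgA-KO liver was below every WT liver. The means were 5035 ± 2278 CPM and 1060 ± 371.0 CPM (SD, n = 3 livers each), with a log2 fold change of -2.25 (95% interval -3.17 to -1.32, edgeR adjusted p = 0.0119). Over the 6 fits that each dropped a library, the log2 fold change lay between -2.53 and -1.81 and the highest adjusted p of edgeR was 0.0448. The exact permutation p was 0.1. Set against Slc27a2, another hepatocyte gene, in the same liver, the ratio of counts was 2.79, 4.98 and 2.72 in WT and 0.785, 0.547 and 1.35 in CgA-KO livers. This ratio was chosen after the values were seen and had no overlap between genotypes (exact permutation test, p = 0.1). That lack of overlap was set by the values already given for both genes.

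None of the 8 hepatocyte markers was called in either direction by edgeR, and their median log2 fold change was -0.19, or 0.11 with scaling by library size alone. DESeq2 called 1 of them lower, Ttr, at -0.80 (adjusted p = 0.0451). Their summed level was between 65930 and 106900 CPM in WT and between 58850 and 95870 CPM in CgA-KO livers. Like Fabp1, it was highest in WT replicate 2, the library with the lowest TMM factor.

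Fabp2, the intestinal form, is also transcribed in liver. Its gene lies on chromosome 3 from 122895072 to 122899506. It was at 72.4, 182.5 and 52.6 CPM in WT and at 37.9, 16.3 and 59.9 CPM in CgA-KO livers. WT replicate 2 was again the highest, and CgA-KO replicate 3 reached into the WT range. The log2 fold change was -1.43 (95% interval -2.67 to -0.20), which edgeR did not call (adjusted p = 0.120) and DESeq2 did (adjusted p = 0.0315). It was -0.72 without WT replicate 2. Of 7 enterocyte markers only Apoa4, which liver also makes, passed the filter, and Sis was at 0 in every library. The ratio of Fabp1 to Fabp2 counts ran from 42.0 to 72.4 in WT and from 22.6 to 51.5 in CgA-KO livers, with overlap.

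Promoter sequence from RefSeq on GRCm38.p6 was at hand for 7 of the 10 members, not for Lpl, Fabp4 or Fabp5. The 250 bases before the start site are shown for Fabp1, the called member among the 7. They are also shown for Cd36 and Fabp2, which DESeq2 called and the reported edgeR fit did not. Capitals mark matches, on either strand, to TGACCT, the hexamer bound by PPAR and related nuclear receptors, and to the TATA box TATAAA. No match was found in these 3 windows to TCACNCCAC, the sterol element bound by SREBP, or to the E-box CACGTG, and no motif shared bases with another.
Fabp1, plus strand, chr6:71199629-71199878: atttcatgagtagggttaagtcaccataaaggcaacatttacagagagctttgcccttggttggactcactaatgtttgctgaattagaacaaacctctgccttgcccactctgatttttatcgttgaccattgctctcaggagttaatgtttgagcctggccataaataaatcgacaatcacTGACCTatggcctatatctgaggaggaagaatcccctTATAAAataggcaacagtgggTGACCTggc
Cd36, minus strand, chr5:17835897-17836146: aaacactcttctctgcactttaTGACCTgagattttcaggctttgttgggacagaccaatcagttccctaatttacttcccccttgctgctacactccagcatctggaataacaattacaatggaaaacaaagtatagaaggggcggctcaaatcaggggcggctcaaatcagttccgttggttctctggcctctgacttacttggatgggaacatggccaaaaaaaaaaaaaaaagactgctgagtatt
Fabp2, plus strand, chr3:122894822-122895071: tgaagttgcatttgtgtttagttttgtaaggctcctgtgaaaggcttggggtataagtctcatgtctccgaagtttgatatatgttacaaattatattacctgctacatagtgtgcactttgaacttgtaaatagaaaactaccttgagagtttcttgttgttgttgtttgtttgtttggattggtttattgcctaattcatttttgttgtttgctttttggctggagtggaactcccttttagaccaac

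The Fabp1 window held TGACCT at 62 to 67 and at 4 to 9 bases before the start and TATAAA at 25 to 30 bases before it. The Cd36 window held TGACCT at 223 to 228 bases before the start, and the Fabp2 window held none of the 4 motifs. Over all 32851 promoter windows of this length, 14.0% held TGACCT, 12.4% TATAAA, 6.02% CACGTG and 1.05% TCACNCCAC. Matches of this kind are a description of the letters and not of binding. The last 52 bases of the Fabp1 window fall in an exon that GENCODE starts further upstream. Lipc had TGACCT in 1 of its 2 windows. Slc27a2 had it in its only window, of which all 250 bases fall in GENCODE exons. The Cd36 window and the Lipc window with TGACCT lie within the GENCODE bounds of their genes, outside exons.

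Fabp5, the epidermal form, also found in macrophages and hepatocytes, had the largest log2 fold change of the members in size. Its gene lies on chromosome 3 from 10012548 to 10016607. It was at 35.7, 41.6 and 20.4 CPM in WT and at 1.996, 4.57 and 8.61 CPM in CgA-KO livers. Every CgA-KO liver was below every WT liver, although the CgA-KO livers differed among themselves by more than the WT livers did in proportion. The log2 fold change was -2.68 (95% interval -3.78 to -1.59, edgeR adjusted p = 0.0117, exact permutation p = 0.1). The call was lost when WT replicate 2 was left out (-2.47, adjusted p = 0.0741, edgeR) and when CgA-KO replicate 2 was (-2.57, adjusted p = 0.0542, edgeR). Fabp5 has processed pseudogenes, and 9.27% of its distinct 31-base words occur in transcripts of 21 other genes, so part of its reads can be shared. The same holds for Slc27a2, with 10.3% of its words in 1 other gene, and for Lpl, with 3.97% over 869 other genes. In the remaining members the share was at most 0.288%, in Fabp4.

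Fabp4, the form of adipocytes, macrophages and capillary endothelium, is a neighbour of Fabp5, with its start 191.5 kb away on the same chromosome, from 10204088 to 10208576. It was at 21.8, 9.45 and 5.51 CPM in WT and at 15.6, 10.02 and 18.4 CPM in CgA-KO livers. WT replicate 1 was the highest of all 6, and the genotypes overlapped. The log2 fold change was 0.28 (95% interval -0.75 to 1.31, edgeR adjusted p = 0.735), with 1.02 without WT replicate 1 and -0.08 without WT replicate 3. The ratio of Fabp4 to Fabp5 counts, chosen after the values were seen, was 0.609, 0.227 and 0.270 in WT and 7.81, 2.19 and 2.14 in CgA-KO livers. Fabp5 thus held more counts than Fabp4 in every WT library and fewer in every CgA-KO library (exact permutation test, p = 0.1). Pmp2 and Fabp9, family members that lie between them, had 0 counts in all 6 libraries, and Fabp12, on the far side of Fabp4, had at most 6.

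Of the 11 other genes of the Fabp and retinoid binding family, most had few or no counts. Fabp7, the brain form, also known from Kupffer cells, whose markers are given beside Lpl, rose from 6.45, 4.34 and 1.44 CPM in WT to 36.2, 18.9 and 17.9 CPM in CgA-KO livers, with a change of 2.61 on the log2 scale (adjusted p = 0.0143, edgeR). Its adjusted p reached 0.0937 with a library left out.

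**Figure D4:**
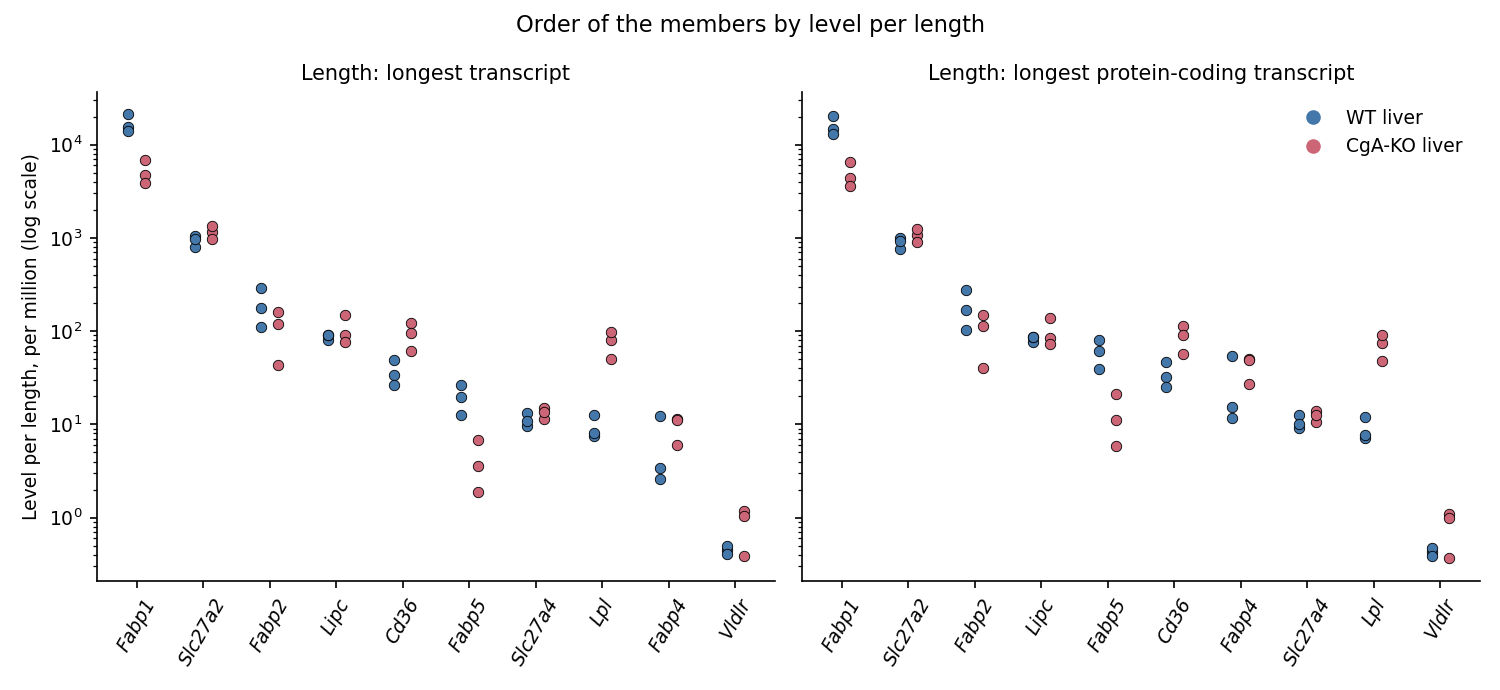
Level per length (y axis, log scale: counts per kb of transcript, scaled to the same total in each library) of the 10 genes in each WT and each CgA-KO liver, ordered by the WT mean, with the longest transcript as length on the left and the longest protein-coding transcript on the right. Fabp1 and Slc27a2 lead in every liver and Vldlr is last in every liver, while Lpl stands higher and Fabp5 lower in the order of CgA-KO livers.

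To compare genes with each other, counts were divided by transcript length and scaled to the same total in each library, without TMM factors, so that folds between genotypes differ from those in CPM. On this scale of levels per length Fabp1 was first in all 6 livers, at 16870 ± 3844 in WT and 5159 ± 1558 in CgA-KO, and Slc27a2 was second, at 942.0 ± 126.3 and 1147 ± 185.9. Vldlr was last in all 6, at 0.452 ± 0.0460 and 0.870 ± 0.423. In WT the order between was Fabp2, Lipc, Cd36, Fabp5, Slc27a4, Lpl and Fabp4, the same in each of the 3 livers. The ranges of neighbours overlapped from Fabp5 down to Fabp4 and did not overlap above. In CgA-KO livers Fabp2, Lipc, Cd36 and Lpl, with means from 107.3 down to 75.8, had overlapping ranges and no common order. Lpl moved from place 8 of 10 to place 6, with a mean of 9.44 in WT and 75.8 in CgA-KO, and Fabp5 from place 6 to place 9, with means of 19.5 and 4.09.

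The length used matters for Fabp4 and Fabp5, whose longest annotated transcripts, of 4231 and 3238 bases, are not protein-coding. With the longest protein-coding transcripts, of 896 and 987 bases, a choice made after the lengths were seen, Fabp5 was at place 5 in WT and at place 8 in CgA-KO livers, and Fabp4 at place 7 in both. Lpl was then at place 9 in WT and again at place 6 in CgA-KO. Fabp1 made up 98.8% ± 0.301 of the summed level per length of the 4 Fabp members in WT and 97.8% ± 0.747 in CgA-KO, with overlap (exact permutation test, p = 0.3). With protein-coding lengths these shares were 98.4% ± 0.433 and 96.98% ± 0.806, without overlap (p = 0.1, the smallest that the exact test allows). The summed level of the 4 was 17090 ± 3934 in WT and 5279 ± 1615 in CgA-KO with the longest transcripts, with no overlap (exact permutation test, p = 0.1).

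Genes for the activation and carriage of fatty acids inside the cell were lower or not called. Of 8 tested, 2 were called, both lower, beside 3.84% of all genes tested called lower. Acsl3, an acyl-CoA synthetase of the endoplasmic reticulum and lipid droplets, had a log2 fold change of -1.04 (adjusted p = 0.00831, edgeR). Dbi, the acyl-CoA binding protein, had -1.43 (adjusted p = 0.0266, edgeR), from between 827.0 and 1725 CPM in WT to between 367.9 and 543.8 CPM. The adjusted p of Dbi reached 0.093 (edgeR) with a library left out. The median of the 8 was -0.52, and the sign of that median stayed with scaling by library size alone (-0.26).

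Of 15 transcription regulators of uptake genes, all tested, 2 were called, a share near the 12.4% called among all genes tested. Both fell, beside 3.84% of all genes tested called lower. With scaling by library size alone 1 was called higher and 1 lower. Srebf1, which encodes the lipogenic factor SREBP-1, had a log2 fold change of -1.73 (adjusted p = 0.0128, edgeR). Nr1i3, which encodes the xenobiotic receptor CAR, had -1.22 (adjusted p = 0.0496, edgeR). Both lost the call in at least 1 fit without a library, with highest adjusted p-values of 0.0551 for Srebf1 and 0.192 for Nr1i3. The next 2 were chosen after their values were seen. Ppara, the receptor known to drive Fabp1 in hepatocytes, was at 98.97, 83.8 and 87.3 CPM in WT and 64.4, 42.8 and 61.7 CPM in CgA-KO livers, without overlap, and edgeR did not call it (log2 fold change -0.68, adjusted p = 0.0666) while DESeq2 called it lower (adjusted p = 0.0209). Pparg, the receptor tied to Cd36 and Fabp4 in adipocytes and macrophages, was at 14.2, 14.0 and 10.6 CPM in WT and 7.43, 8.59 and 10.5 CPM in CgA-KO livers, also without overlap and not called (log2 fold change -0.54, edgeR adjusted p = 0.149).

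Over all 7 lists of related genes, 53 of 66 were tested and 10 were called, 2 higher and 8 lower, beside 12.4% of all genes tested, 8.60% called higher and 3.84% called lower. Their median log2 fold change was -0.26. That median became 0.00 with scaling by library size alone, where 4 were called higher and 5 lower. Acsl3 was also called in each of the 6 fits without a library.

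The genes whose log2 CPM followed a called member most closely over the 6 libraries were taken by Pearson correlation, as a description only, since all points share the 2 genotypes. For Lpl they were Cd5l, a secreted protein of macrophages, Man2b1, a lysosomal mannosidase, and Cd14, a lipopolysaccharide receptor of myeloid cells, with coefficients of 0.999, 0.999 and 0.998. Cd5l, 1 of the 12 Kupffer cell markers, was like Lpl highest in CgA-KO replicate 2 and lowest among the CgA-KO livers in replicate 3. Other markers of that list peaked in different livers, Clec4f in CgA-KO replicate 1, C1qa in replicate 2 and Vsig4 in replicate 3. For Fabp1 they were Idh1, H2bc4 and Sec61b (0.998, 0.997 and 0.995), and for Fabp5 Pafah1b3, Abhd6 and Ldhd (0.998, 0.993 and 0.989).

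**Figure D5:**
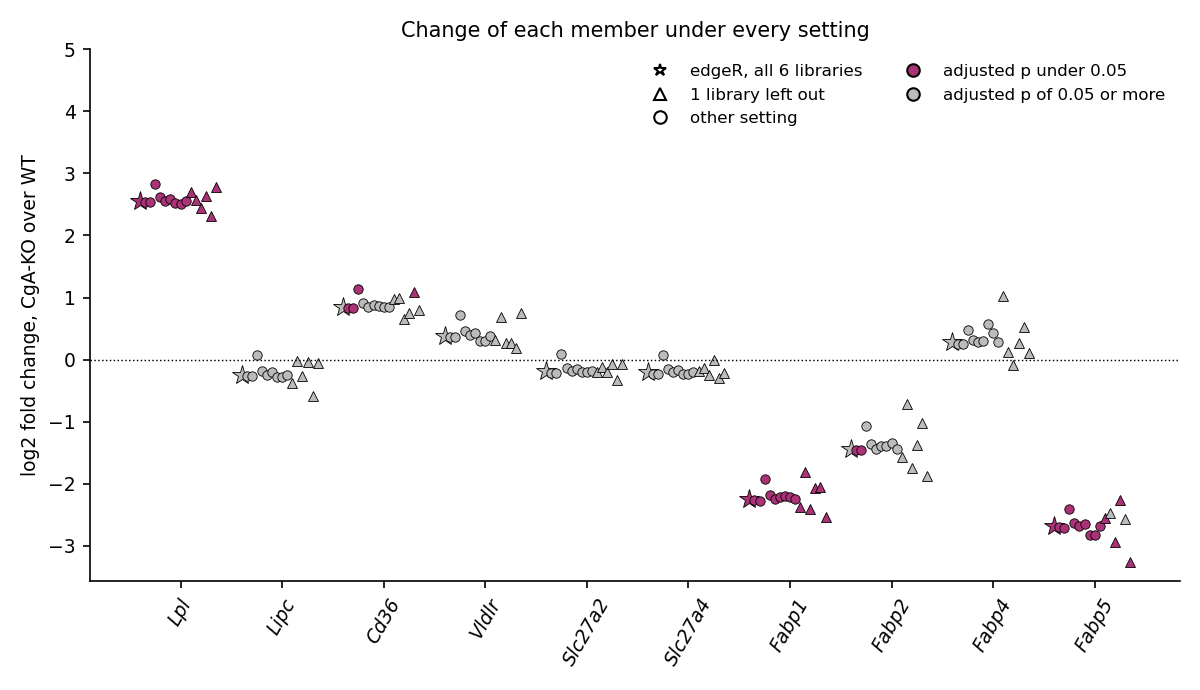
Log2 fold change of CgA-KO over WT (y axis) of the 10 genes under all settings, with a star for edgeR with all 6 libraries, triangles for fits that left out 1 library and circles for other tools, filters and scalings, coloured where the adjusted p was under 0.05. At that threshold Lpl and Fabp1 are called in every setting shown, Fabp5 in all but 2 of the fits without a library, and Cd36 and Fabp2 in some.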

How the data were processed

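Polyadenylated RNA was sequenced from pieces of liver, 3 WT and 3 CgA-KO. By the submitters' processing notes, the authors used Salmon 1.4.0 and DESeq2; reads were assigned to transcripts of the GRCm38 build, and the authors deposited 1 table of whole-number counts per gene symbol, without scaling; how transcripts were summed to genes is not given in the sources used here, and genes with related copies can share reads. All 6 columns were mapped to samples by their titles, and 0 were left without a sample. The test was that of edgeR 4.0.16 under R 4.3.3, run on the rows of the 32212 that filterByExpr (minimum count 10) kept, with TMM factors, a robust quasi-likelihood fit and a two-sided contrast of genotype. Intervals are at 95%, from a standard error equal to the fold change over the root of F. Log2 CPM used a prior count of 2. Transcript lengths and coordinates came from GENCODE (GRCm38), with the longest transcript as length for 31013 symbols, and promoters from RefSeq. A floor of 3 counts was between 0.0951 and 0.269 CPM, for counting error only. Replicates are separate mice by the labels, and replicates of a genotype differed by more than counting error (chi-square over its degrees of freedom at least 30.4).

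The members, gene lists and tests were chosen with earlier results of these data known. Named genes were the 10 members, up to 4 called genes of each related list and, where fewer than 2 were called, its most abundant gene, the most abundant marker of each cell type, and the 3 genes closest to each called member. Alternatives were DESeq2 1.42.0, limma-voom (limma 3.58.1), other scalings and filters, a replicate block, summed repeated symbols, a threshold of 0.01, and fits without each library. Some genes that this rule would name are not reported here. The procedure was tested on simulated data. Figures were drawn with matplotlib 3.10.9.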

Additional observations from a re-analysis of the deposited data

How the results depend on the processing

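Of the 10 members, Lpl and Fabp1 were called at an adjusted p under 0.05 in all 15 alternative fits, and Fabp5 in 13 of them. At the stricter threshold of 0.01 the reported fit called only Lpl. The members called were 3, and 5 with DESeq2 under either filter, 1 at an adjusted p under 0.01, and between 2 and 3 without a library. All genes called were 1726, and 2601 with DESeq2 on the same genes, 2592 with DESeq2 on genes with at least 1 count in total, 360 at an adjusted p under 0.01, and between 407 and 2101 without a library. The lowest of these, 407, was without WT replicate 3. Related genes called were 10, and 2 at an adjusted p under 0.01, and between 3 and 9 without a library, the lowest again without WT replicate 3. Scaling by library size alone turned the sign of 3 members that no fit called, Lipc (0.0671), Slc27a2 (0.0904) and Slc27a4 (0.0697), and leaving out WT replicate 3 turned that of Fabp4, whose log2 fold changes without a library ran from -0.0804 to 1.0227. The share of Fabp1 in the summed level per length of the 4 Fabp members moved to 98.4% in WT and 96.98% in CgA-KO with protein-coding lengths, and stayed between 98.6% and 98.9% and between 97.4% and 98.1% without a library. The cause of these shifts was not tested. The replicate numbers paired the livers only in name, since deviations of same-numbered livers correlated at 0.199, 0.013 and -0.066. With a replicate block 1498 genes and 3 members were called. With 3 livers per genotype, a change smaller than the distance from the estimate to either end of its interval cannot be told from none. Vldlr had at most 103 counts per library. Levels per length are scaled to the library total without TMM factors, and their order within a liver does not depend on it, so no other scaling was run for them.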
